A study of Mus musculus with 12 samples.

Results

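GFP+ marrow cells of leukemic mice that expressed Prdm16s were compared with whole marrow of healthy mice. Levels are in FPKM, fragments per kilobase of transcript, with libraries here scaled by size factors and not by their sequenced totals. Genes were tested if they had an FPKM of at least 1 in at least 3 of the 6 libraries. This rule kept 10843 of the 24107 genes in the table. The 3 control libraries were made from whole bone marrow of wild-type C57BL/6 mice. The 3 GFP+ libraries were made from C57BL/6 marrow cells that carried the genotype Prdm16s and were sorted for green fluorescent protein (GFP) from leukemic recipient mice. The remaining 6 of the 12 libraries of the series were of megakaryocyte-erythroid progenitors (MEP), the progenitors of platelets and red cells, 3 of them from wild-type and 3 from leukemic mice. The labels name no GFP gate for the control marrow. Prdm16s, leukemia, being a transplant recipient and selection for GFP cannot be told apart in this comparison. The sources used here give neither the age and number of mice nor the vector and promoter that drove Prdm16s. No label states that each library is a separate mouse, so a p-value here measures only the spread between the samples, which may be technical.

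Bone marrow is a mixture of red cell precursors, granulocytes, monocytes, macrophages, lymphocytes, platelet-forming megakaryocytes and rare stem and progenitor cells. Prdm16 encodes a zinc-finger transcription factor that maintains blood stem cells. Its short form, Prdm16s, lacks the PR domain and is known as a leukemia-promoting form in mice and in human acute myeloid leukemia. Myeloid leukemia fills the marrow with cells arrested between progenitor and mature granulocyte or monocyte, at the cost of other lineages. In bulk RNA of this kind, fewer cells of a type and less RNA per cell cannot be told apart.

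The whole reads recovered from the table came to 7.17 to 8.99 M in the control libraries and to 7.03, 1.15 and 9.44 M in GFP+ marrow 1, 2 and 3. The first principal component of the 6 libraries (57.8% of the variance) placed the controls between -45.18 and -42.2 and the GFP+ libraries at 32.97, 37.35 and 61.97. GFP+ marrow 3 stood apart on the second component (26.7%), at 53.74 against -30.05 and -41.48 in the other GFP+ libraries and 3.82 to 7.318 in control marrow. The median standard deviation of a gene (log2 scale) was 0.36 over the 3 GFP+ libraries, 0.19 over GFP+ marrow 1 and 2, and 0.20 in control marrow. Xist, expressed from the inactive X chromosome of female cells, was at 39.2 and 41.2 FPKM in GFP+ marrow 1 and 2 and at 0.00658 in GFP+ marrow 3. In control marrow 1, 2 and 3 Xist was at 0.0149, 0.0904 and 0, so it differed between the groups as well as within the GFP+ group. The Y-linked gene Ddx3y was at 0.0324, 0.392 and 23.1 FPKM in GFP+ marrow 1, 2 and 3 and at 10.3 to 20.4 in control marrow. Both were chosen after their values were seen. Of the 331 tested genes on chromosome X, 31 rose and 14 fell. Over all 10843 tested genes 838 rose (7.73%) and 937 fell (8.64%). Of the 4 tested genes on chromosome Y none was called by limma. Of the 8 tested genes of a sex-linked list none was called by limma or voom or was at an unadjusted p below 0.05, and without GFP+ marrow 3, 1 rose and 4 fell. The part of the sex difference in other results was not tested beyond leaving out chromosomes X and Y, which left 809 rises and 925 falls.

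Prdm16 (chr4:154316122-154637360, RefSeq, GRCm38.p6), the gene expressed in the leukemic cells, was at 0.829, 0.632 and 0.957 FPKM in control marrow 1, 2 and 3 and at 9.99, 7.09 and 10 FPKM in GFP+ marrow 1, 2 and 3. Every GFP+ library was above every control library. The rise was 2.46 ± 0.27 (log2 fold change ± SE, n = 3 and 3; limma, Benjamini-Hochberg adjusted p = 0.000991), an 11.2-fold ratio of mean FPKM. Reads of Prdm16s and of the endogenous gene are counted together in the table. Over all tested genes 7.73% rose and 8.64% fell. Prdm16 was the sole rise (4.17%) among the 24 tested genes of the PRDM family and TGF-beta pathway list, with 3 falls (12.5%). 1 of these was Tgfbr2, the type II TGF-beta receptor, at 6.85, 6.59 and 6.31 FPKM in control and 2.14, 2.13 and 1.36 in GFP+ marrow, which fell by 1.41 on the log2 scale (limma adjusted p = 0.00865, and 0.0533 without control marrow 2). The list's falls numbered 2, 0 and 1 without control marrow 1, 2 and 3 and 5 without GFP+ marrow 3.

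Of the 10843 tested genes, 1775 (16.4%) differed between GFP+ and control marrow at an adjusted p below 0.05, of which 838 (7.73% of those tested) rose and 937 (8.64%) fell. Falls were more numerous among large changes. By at least 1 on the log2 scale, 501 genes rose and 716 fell, by at least 2, 89 rose and 283 fell, and by at least 4, 7 rose and 36 fell. The groups did not overlap for any of the 838 rises or for 936 of the 937 falls. The calls come from the same 6 libraries, so this is no separate support for them. The share without overlap over all tested genes is not given here. Fold changes are differences of mean log2(FPKM + 1), which understates the change of genes with low FPKM. The median over all tested genes was -0.04. With libraries rescaled to equal FPKM totals the median moved to -0.25, and 513 genes rose and 1504 fell. In that setting 25.4% of the called genes were higher, against 47.2% in the main test. The balance turned after quantile normalization, with 1001 rises and 952 falls. It also turned when the filter was raised to 5 FPKM, with 790 rises and 696 falls. Falls outnumbered rises under every other alternative, most narrowly with a pseudocount of 0.1 (775 and 774). Without GFP+ marrow 3 the counts were 1271 rises and 1514 falls, and 831 of the 838 rises and 930 of the 937 falls remained called.

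**Figure D1:**
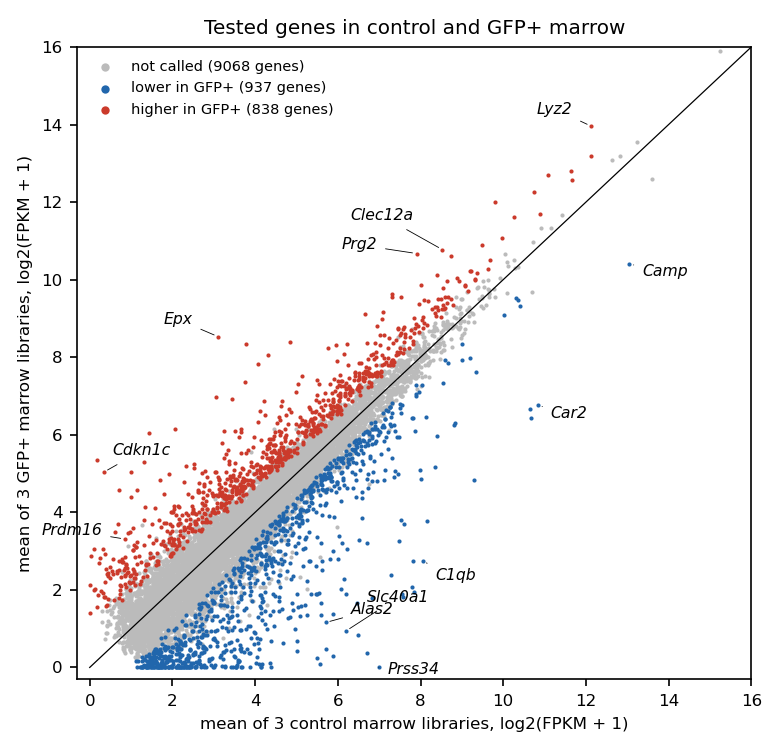
Mean log2(FPKM + 1) of each of the 10843 tested genes in 3 control marrow libraries (x axis) and 3 GFP+ marrow libraries (y axis), with the 838 genes called higher in red, the 937 called lower in blue and the line of equality in black. The blue points reach farther from the line than the red ones and include 76 genes listed at 0 in every GFP+ library. Such genes passed the filter only through the 3 control libraries, so they could only be lower. Some are small RNA genes with few reads, such as Snord1c with 1 read in each control library.

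Of the 306 genes chosen for description by a fixed rule, 263 were called, and 173 of these kept the call in every fit without 1 library. The called genes below are among the 173 unless a lost call is stated or a gene is said to have been chosen after its values were seen. When the 6 MEP libraries shared the fit, 70 of the 124 described rises and 37 of the 139 described falls lost the call. With leukemic MEP 3, the shallowest library at 0.572 M recovered reads, left out of that fit, 11 and 5 lost it. Adjusted p-values from this fit of 4 groups are given below for the genes that lost the call there.

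The largest rises brought up genes that were close to 0 or low in healthy marrow. Epx, the eosinophil peroxidase (chr11:87863997-87875536), was at 16, 5.02 and 5.19 FPKM in control marrow and 300, 375 and 447 in GFP+ marrow, a rise of 5.43 ± 0.38 (limma adjusted p = 0.000128). Npy, a secreted neuropeptide (chr6:49822710-49829507), was at 0, 0 and 0.45 FPKM in control marrow and 79.8, 29.6 and 26.1 in GFP+ marrow, a rise of 5.17 ± 0.43 (adjusted p = 0.00025). Cdkn1c, which encodes the cell cycle inhibitor p57 (chr7:143458339-143461059), went from 0.069, 0.111 and 0.719 FPKM to 32.6, 27.7 and 35.8, a rise of 4.69 ± 0.28 (adjusted p = 6.43e-05). The GFP+ libraries were near each other for Cdkn1c, and Npy was highest in GFP+ marrow 1. Ecm1, an extracellular matrix protein (chr3:95734147-95739876), was at 2.26, 0.853 and 2.21 FPKM in control marrow and 62.5, 65.9 and 68.2 in GFP+ marrow, a rise of 4.63 ± 0.27 (adjusted p = 5.76e-05). Clec4b2, a C-type lectin receptor of myeloid cells (chr6:123172868-123204671), was at 13, 11.5 and 13.7 FPKM in control and 248, 358 and 373 in GFP+ marrow, a rise of 4.56 ± 0.19 (adjusted p = 2.15e-05).

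Other large rises included metabolic enzymes and secreted proteins. Ldhb, a lactate dehydrogenase subunit, was at 33.4, 22.8 and 27.7 FPKM in control marrow and 372, 268 and 369 in GFP+ marrow, and rose by 3.54 ± 0.20 (limma adjusted p = 5.18e-05). Fbp1, the fructose-bisphosphatase of gluconeogenesis, was at 20.6, 19.7 and 16.5 FPKM and then 310, 293 and 211, a rise of 3.76 ± 0.19 (adjusted p = 3.19e-05). Spp1, which encodes osteopontin, was at 12, 24.6 and 6.59 FPKM and then 119, 186 and 199, a rise of 3.60 ± 0.41 (adjusted p = 0.00112). The lowest GFP+ library of each of these 3 genes was several times the highest control library. The 15 largest rises also held Cystm1 (4.07), Tmem178 (4.02), Mrgpra2b (3.92), Ms4a4c (3.48), Mrgpra2a (3.43) and Nrg4 (3.14), given with their log2 fold changes. Mrgpra2a and Mrgpra2b, and Ms4a4c with its neighbours, are near-identical copies whose reads could be split between them, and are uncertain for that reason.

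The largest falls were of genes well expressed in control marrow and at or near 0 in most GFP+ libraries. Prss34, a serine protease of basophils and mast cells (chr17:25298394-25300168), was at 201, 86.6 and 116 FPKM in control marrow and listed at 0 in all 3 GFP+ libraries. Set against a floor of 3 reads over the GFP+ group, control marrow was at least 877-fold higher (log2 fold change -6.99, limma adjusted p = 2.15e-05). Slc38a5, an amino acid transporter of red cell precursors (chrX:8271381-8280179), was at 83.1, 111 and 121 FPKM and then 0.508, 0.439 and 0 (log2 fold change -6.34 ± 0.26, adjusted p = 2.15e-05). Crip2, a LIM domain protein, was at 39.2, 67 and 73.4 FPKM and then 0.106, 0.644 and 0 (-5.59 ± 0.33, adjusted p = 5.76e-05). Prss50 (42.2, 49.9 and 65.3 FPKM, then 0, 0 and 1.62) and Hpn (35.9, 46.6 and 50.3, then 0.535, 0 and 0.059) each fell by 5.25. Cst7, which encodes cystatin F, was at 187, 173 and 206 FPKM in control marrow and at 0.621, 0 and 30.4 in GFP+ marrow, so that GFP+ marrow 3 held most of what was left. Its call was lost without control marrow 1 (adjusted p = 0.052) and without control marrow 3 (0.051).

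**Figure D2:**
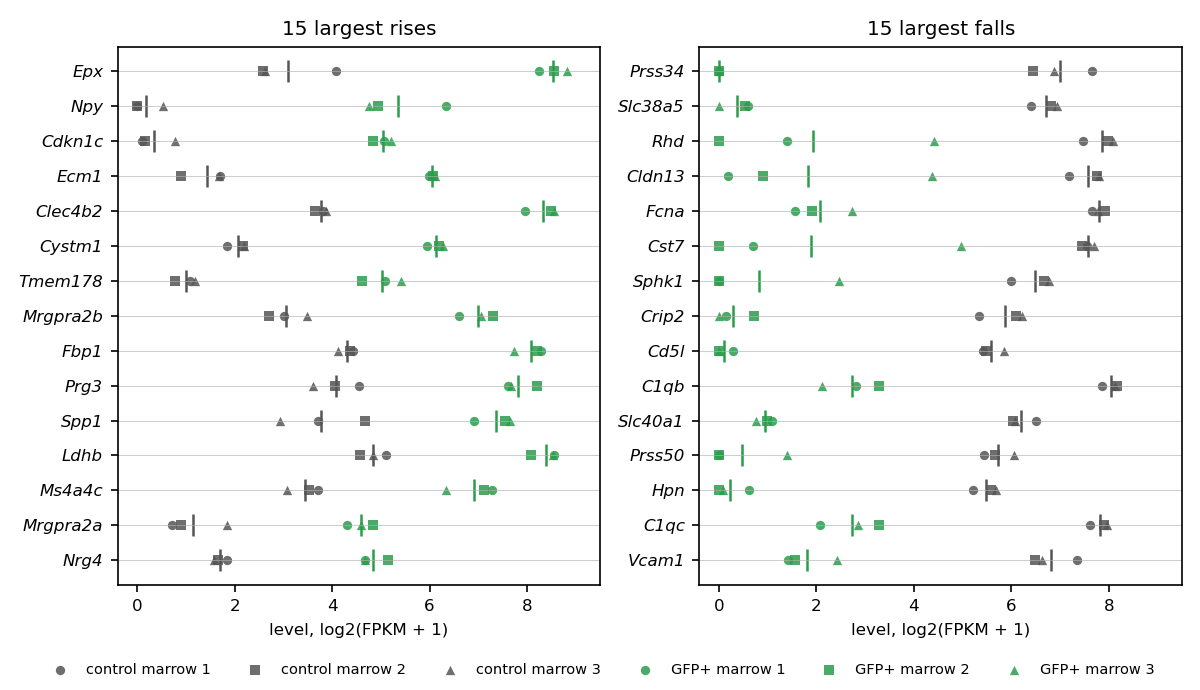
Log2(FPKM + 1) in each of the 3 control (grey) and 3 GFP+ marrow libraries (green) for the 15 largest rises and the 15 largest falls among called genes whose higher group averaged 10 FPKM or more; marker shapes show the replicate and vertical ticks the group means. Control and GFP+ points do not overlap for any of the 30 genes, which was a condition of their choice. For Rhd, Cldn13, Cst7 and Sphk1 the GFP+ marrow 3 point lies above those of GFP+ marrow 1 and 2.

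The tested members of 43 gene lists, without the sex-linked list, were counted by call. The largest shares of falls were in the erythroid list (30 of 33), the macrophage list (24 of 30), the B lymphoid list (16 of 23) and the haem synthesis and iron list (20 of 33). The largest share of rises was in the list of primary granule proteins of neutrophils (10 of 16), followed by S100 proteins, annexins and galectins (9 of 21), MHC class I (8 of 21) and lysosome and cathepsins (13 of 35). The share over all tested genes was 7.73% for rises and 8.64% for falls. Some genes are in more than 1 list. In the fit of 4 groups the lists that fell kept most calls, with 27 erythroid, 24 macrophage, 15 B lymphoid and 16 haem and iron genes lower. The rises numbered 1 for primary granules, 1 for secondary and tertiary granules, 1 for mature neutrophils, 2 for monocytes, 2 for eosinophils, 7 for myeloid transcription factors, 5 for S100, annexin and galectin genes, 1 for NADPH oxidase and phagocytosis, 3 for the lysosome, 2 for MHC class I, 4 for glycolysis and 2 for cholesterol and fatty acids. With leukemic MEP 3 left out of that fit, 9 primary granule, 14 transcription factor, 9 S100, annexin and galectin, 15 lysosome and 7 MHC class I genes rose.

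**Figure D3:**
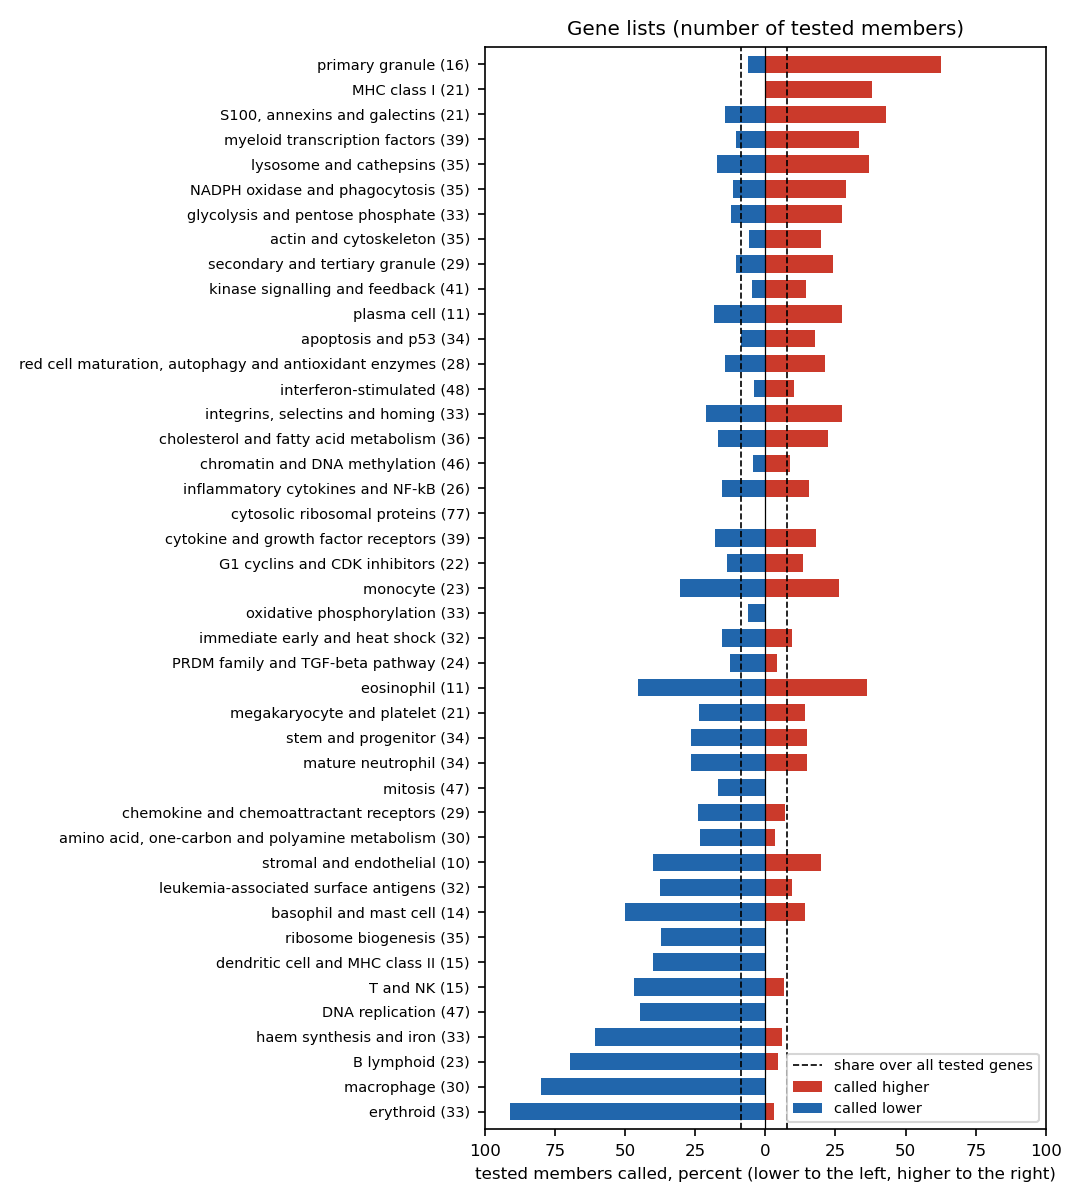
Share of the tested members of each list called higher in GFP+ marrow (red, to the right) or lower (blue, to the left), in percent, with the number of tested members in brackets; dashed lines mark 7.73% and 8.64%, the shares over all 10843 tested genes. Erythroid, macrophage and B lymphoid lists have the longest blue bars and the primary granule list the longest red bar.

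**Figure D4:**
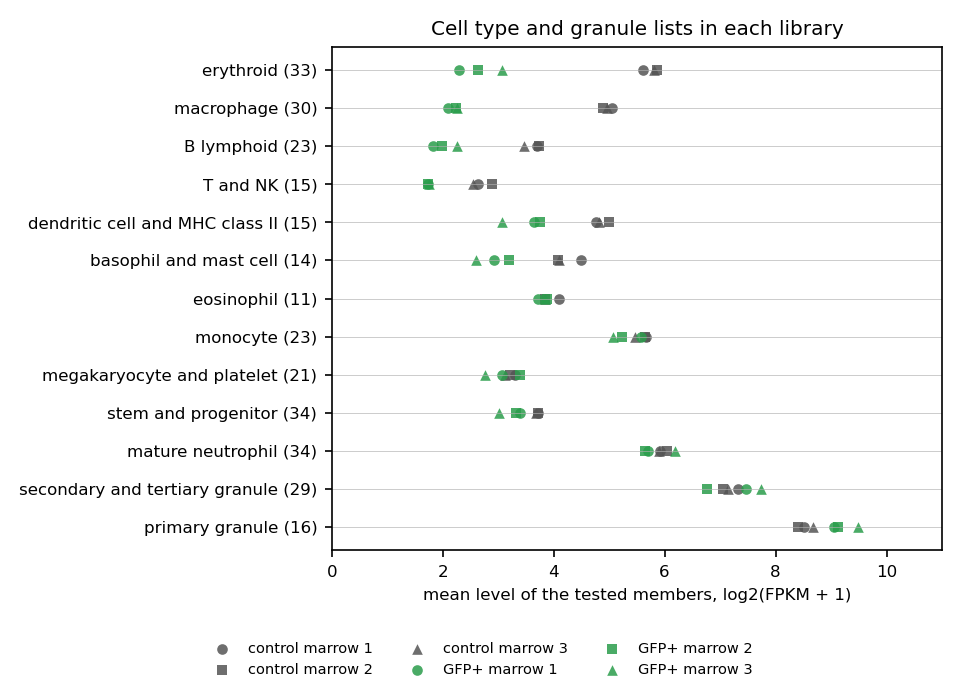
Mean log2(FPKM + 1) of the tested members of each cell type or granule list (number in brackets) in each control and GFP+ marrow library. Erythroid means were 5.61 to 5.87 in control and 2.29 to 3.06 in GFP+ marrow, while primary granule means were 8.40 to 8.68 in control and 9.05 to 9.48 in GFP+ marrow.

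Red cell genes were low in GFP+ marrow. The summed FPKM of the erythroid list was 6676, 9396 and 8398 in control marrow and 594, 808 and 1296 in GFP+ marrow. The list's median log2 fold change was -3.16, beside -0.04 over all tested genes, and 31 members fell without GFP+ marrow 3. Rhd, the Rhesus blood group antigen, was at 176, 253 and 272 FPKM in control and 1.63, 0 and 20.3 in GFP+ marrow (log2 fold change -5.91 ± 0.93, limma adjusted p = 0.00429). Sphk1, a sphingosine kinase whose product red cells store, was at 62.5, 101 and 108 FPKM and then 0, 0 and 4.55 (-5.65 ± 0.63, adjusted p = 0.00104). For both genes the highest GFP+ value was in GFP+ marrow 3. Alas2, the first enzyme of haem synthesis in red cells (chrX:150547417-150570622), was at 52.2, 53.9 and 48.2 FPKM and then 1.01, 1.4 and 1.31 (-4.55 ± 0.21, adjusted p = 2.15e-05). Car2, carbonic anhydrase 2, was at 1534, 2064 and 1953 FPKM and then 64.6, 79.2 and 239 (-4.09 ± 0.43, adjusted p = 0.000843). The alpha-globin gene Hba-a2, a near-identical copy of its neighbour and thus uncertain, was at 435, 910 and 614 FPKM and then 34.6, 26.2 and 22.9 (-4.45 ± 0.27, adjusted p = 6.43e-05). Car1 was at 1436, 1673 and 1849 FPKM and then 17.3, 68.3 and 506. Its fall (-4.25, adjusted p = 0.0212) was lost without control marrow 1, 2 or 3 (0.0801, 0.0804 and 0.0857), without GFP+ marrow 2 (0.0575) and without a filter on low values (0.0612).

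Nfe2, a transcription factor shared by the red cell, platelet and granulocyte lineages, was the sole erythroid list member that rose, from 70.9, 76.1 and 71 FPKM to 171, 144 and 165 (1.12 ± 0.14, limma adjusted p = 0.00144). Gata1 and Klf1, the main transcription factors of red cell precursors, were chosen after their values were seen. Gata1 was at 102, 139 and 129 FPKM in control and 20.1, 24.6 and 39 in GFP+ marrow (-2.15 ± 0.25, adjusted p = 0.00124), and Klf1 at 167, 309 and 329 and then 12.6, 24.8 and 69.9 (-3.14 ± 0.54, adjusted p = 0.00652). Both kept the call in each of the 6 fits without 1 library, at adjusted p up to 0.0119 for Gata1 and 0.0399 for Klf1. Gfi1b, a repressor of the same lineage, fell from 138, 204 and 224 FPKM to 10.7, 13.2 and 15.5 (-3.73 ± 0.22, adjusted p = 6.43e-05).

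Promoter windows of the red cell genes are shown because these genes fell together and because GATA factors are known to bind the sequence AGATAA. Windows came from the RefSeq promoter table (GRCm38.p6), each with 250 bases before and 50 after a start, and matches were counted on both strands in the full windows. Of the 33 erythroid genes 23 had a window, and 12 of their 29 windows (41.4%) held AGATAA. The share was 11.2% of all 32851 windows in the table and 6.59% of the 10826 windows of tested genes. It was 10% of the windows of all genes called lower and 6.04% of those called higher. The 250 bases before the start are printed for 3 of the genes above, with AGATAA or its complement TTATCT in capitals. These 3 were picked among called falls of the list whose window held a match. A match is a description of the sequence and not a site.
Rhd (chr4:134864286-134864535, plus strand): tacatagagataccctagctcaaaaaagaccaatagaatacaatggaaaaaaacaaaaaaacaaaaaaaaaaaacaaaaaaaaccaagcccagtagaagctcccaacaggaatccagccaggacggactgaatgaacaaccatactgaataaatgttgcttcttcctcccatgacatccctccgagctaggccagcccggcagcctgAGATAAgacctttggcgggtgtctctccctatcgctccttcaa
Sphk1 (chr11:116532194-116532443, plus strand): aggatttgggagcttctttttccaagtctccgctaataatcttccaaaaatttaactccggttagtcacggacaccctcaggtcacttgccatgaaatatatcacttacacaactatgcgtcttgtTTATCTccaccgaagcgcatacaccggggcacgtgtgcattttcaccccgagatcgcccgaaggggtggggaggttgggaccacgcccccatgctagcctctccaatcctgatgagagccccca
Alas2 (chrX:150547167-150547416, plus strand): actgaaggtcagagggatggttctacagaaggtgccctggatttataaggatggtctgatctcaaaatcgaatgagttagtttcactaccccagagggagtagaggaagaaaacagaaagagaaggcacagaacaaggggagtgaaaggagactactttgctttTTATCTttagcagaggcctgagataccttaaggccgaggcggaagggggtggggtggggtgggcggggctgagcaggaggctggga
The match began 43 bases before the start in Rhd, 124 in Sphk1 and 86 in Alas2, and lay on the other strand in Sphk1 and Alas2.

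Genes of haem synthesis and iron handling moved in both directions. Alas1, the housekeeping form of the first enzyme, which granulocyte precursors use for the haem of myeloperoxidase (chr9:106233455-106247954), rose from 198, 157 and 199 FPKM to 731, 702 and 811 (2.02 ± 0.15, limma adjusted p = 0.000145; 0.14 in the fit of 4 groups), while Alas2 fell. The transferrin receptors Tfrc and Tfr2, which take up iron, fell by 1.45 and 1.86 on the log2 scale, with Tfrc at 49.9, 43.3 and 38.1 and then 11.5, 18.5 and 16.5 FPKM. Of the haem-degrading enzymes, Hmox2 rose from 47.1, 54.1 and 49.9 FPKM to 107, 117 and 101 (1.09, adjusted p = 0.00194). Hmox1, chosen after its values were seen, was at 189, 212 and 178 FPKM and then 11.5, 5.29 and 26.8 (-3.90, adjusted p = 0.00124, and up to 0.0118 in the fits without 1 library). In all, 2 of the 33 tested genes of haem synthesis and iron rose and 20 fell, with a median of -1.31.

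Genes of resident marrow macrophages, the cells that surround red cell precursors and recycle iron, were lower by a median of 2.49 on the log2 scale (median log2 fold change -2.49). Of 30 tested members 24 fell and none rose (limma, adjusted p; none was higher at an unadjusted p below 0.05 or by voom, the fit on recovered reads), and 27 fell without GFP+ marrow 3. Their mean level was 4.89 to 5.05 (log2) in control marrow and 2.10 to 2.26 in GFP+ marrow. Fcna, the lectin ficolin A (chr2:25624665-25635440), was at 201, 242 and 219 FPKM in control and 1.95, 2.78 and 5.67 in GFP+ marrow (-5.72 ± 0.29, adjusted p = 3.19e-05). Cd5l, a secreted scavenger protein of macrophages, was at 41.5, 43.6 and 56.6 FPKM and then 0.225, 0 and 0 (-5.48 ± 0.25, adjusted p = 2.15e-05). The complement genes C1qb (232, 286 and 278 FPKM, then 6.05, 8.72 and 3.33) and C1qc (196, 237 and 249, then 3.19, 8.79 and 6.27) fell, with log2 fold changes of -5.31 and -5.09. Slc40a1, the iron exporter ferroportin (chr1:45908070-45926532), was at 89.5, 64.7 and 66 FPKM and then 1.12, 0.991 and 0.685, a 78.7-fold ratio of means (-5.26 ± 0.23, adjusted p = 2.15e-05). Vcam1, the adhesion molecule of island macrophages and stroma, fell from 161, 88.2 and 98.3 FPKM to 1.67, 1.97 and 4.33 (-5.02 ± 0.33, adjusted p = 9.27e-05). The macrophage transcription factor Maf fell by 1.94, from 3.6, 3.14 and 3.49 FPKM to 0.21, 0.254 and 0.

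Apoe and Cd81 were the 2 most abundant members of the list. Apoe, apolipoprotein E, was at 460, 530 and 513 FPKM in control and 446, 381 and 686 in GFP+ marrow (-0.03 ± 0.22, limma adjusted p = 0.937), so that the groups overlapped. Cd81, a tetraspanin present on many cell types, fell from 409, 538 and 612 FPKM to 207, 249 and 277 (-1.08 ± 0.19, adjusted p = 0.0071).

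PU.1, the product of Spi1, is known as a main regulator of macrophages and granulocytes and binds sequences with the core GAGGAA. This core was in 16 of 28 windows of the macrophage list (57.1%; 22 of 30 genes had a window), in 7 of 14 windows of the primary granule list (50%), and in 28.3% of all windows and 27.2% of those of tested genes. AGATAA was in 1 of the 28 macrophage windows. GATA and PU.1 matches shared a base in 10 of the 32851 windows. The core was in 29.8% of windows of all genes called higher, 28.2% of those called lower and 53.6% of those of the mature neutrophil list. Windows of 2 macrophage genes that fell and 2 granule genes that rose are printed likewise, with GAGGAA or its complement TTCCTC in capitals. They were picked among called genes whose window held the core, so they bear on no question of direction.
Fcna (chr2:25627975-25628224, minus strand): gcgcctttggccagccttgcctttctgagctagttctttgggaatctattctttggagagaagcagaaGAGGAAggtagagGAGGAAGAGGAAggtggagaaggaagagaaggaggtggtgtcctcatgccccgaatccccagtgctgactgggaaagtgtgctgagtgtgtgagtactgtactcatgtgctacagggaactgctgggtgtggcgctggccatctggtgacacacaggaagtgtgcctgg
Cd5l (chr3:87357631-87357880, plus strand): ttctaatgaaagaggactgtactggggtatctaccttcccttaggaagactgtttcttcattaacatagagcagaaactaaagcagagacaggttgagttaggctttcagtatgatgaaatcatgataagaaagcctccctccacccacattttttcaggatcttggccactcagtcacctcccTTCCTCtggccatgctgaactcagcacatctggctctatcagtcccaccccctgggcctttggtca
Prtn3 (chr10:79879417-79879666, plus strand): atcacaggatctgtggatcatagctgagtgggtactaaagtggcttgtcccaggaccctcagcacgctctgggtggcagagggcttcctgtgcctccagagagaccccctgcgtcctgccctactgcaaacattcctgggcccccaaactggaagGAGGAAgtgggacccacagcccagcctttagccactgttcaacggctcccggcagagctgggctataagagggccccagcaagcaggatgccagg
Ctsg (chr14:56102575-56102824, minus strand): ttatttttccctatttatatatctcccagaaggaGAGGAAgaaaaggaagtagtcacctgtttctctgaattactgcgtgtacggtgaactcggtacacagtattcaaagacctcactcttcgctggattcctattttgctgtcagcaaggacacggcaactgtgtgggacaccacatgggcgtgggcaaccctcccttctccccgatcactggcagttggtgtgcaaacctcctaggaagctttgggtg
Fcna held 3 matches, beginning 182, 169 and 163 bases before the start, and the others 1 each, beginning 66 bases before the start in Cd5l (other strand), 95 in Prtn3 and 216 in Ctsg. The start used for Fcna lies inside the gene span given above and is not its outermost one.

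Lymphocyte genes were low in GFP+ marrow. Of 23 tested B lymphoid genes 16 fell and 1 rose (median -1.69), with 17 falls without GFP+ marrow 3 and 0 rises without control marrow 3. Dntt, the polymerase of early lymphoid progenitors, was at 47.7, 49.4 and 47.6 FPKM in control and 3.38, 4.35 and 7.14 in GFP+ marrow (-3.10 ± 0.25, limma adjusted p = 0.000227). Vpreb3, of the pre-B-cell receptor, was at 43.2, 69.6 and 35.7 FPKM and then 3.05, 3.08 and 0 (-4.25 ± 0.55, adjusted p = 0.00181). Pou2af1, a coactivator of B cells, was at 4.02, 4.59 and 3.51 FPKM and listed at 0 in each GFP+ library, which puts control marrow at least 55.6-fold higher against 3 reads over the group. The 2 most abundant members were not called. Cd24a, a surface glycoprotein, was at 318, 303 and 321 FPKM and then 266, 320 and 272 (-0.14, adjusted p = 0.532), and Cd79b, of the B cell receptor, at 57.5, 75 and 63.5 and then 114, 76 and 60.3 (0.30, adjusted p = 0.425).

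Of 15 tested T and NK genes 7 fell and 1 rose (median -1.36), with 9 falls and 2 rises without GFP+ marrow 3 and 0 rises without control marrow 1, control marrow 3, GFP+ marrow 1 or GFP+ marrow 2. Ccl5, a chemokine of T and NK cells, fell from 10.1, 19.1 and 5.5 FPKM to 0.865, 0 and 0 (-3.20 ± 0.46, limma adjusted p = 0.00286). Klrd1, an NK cell receptor, was at 4.2, 2.69 and 3.71 FPKM and listed at 0 in GFP+ marrow, at least 17.5-fold lower. Nkg7, a granule protein that is also in the primary granule list, was at 682, 838 and 870 FPKM and then 705, 929 and 1012 (0.14, adjusted p = 0.656).

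Among antigen-presenting cell genes, H2-Ab1, an MHC class II chain, fell from 205, 248 and 246 FPKM to 47.1, 117 and 56.9 (-1.76 ± 0.31, limma adjusted p = 0.00696), and GFP+ marrow 2 was the highest of its group. Of 15 tested members of the dendritic cell and MHC class II list 6 fell and none rose (none higher at an unadjusted p below 0.05). The falls numbered 1, 2 and 2 without control marrow 1, 2 and 3, 4 without GFP+ marrow 1 and 9 without GFP+ marrow 3. Cd86, a costimulatory molecule, fell from 13.6, 12.2 and 11.1 FPKM to 0.663, 0.365 and 0 (-3.33 ± 0.29, adjusted p = 0.000316). Plasma cell genes did not move one way. Xbp1, the transcription factor of secretory cells, rose from 195, 182 and 202 FPKM to 369, 546 and 421 (1.18 ± 0.17, adjusted p = 0.00279), and Mzb1, a chaperone of antibody-secreting cells, fell from 11.1, 9.77 and 12.3 FPKM to 0.507, 0 and 0 (-3.39 ± 0.29, adjusted p = 0.000272).

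Granulocyte genes are described by the stage at which their products are known to be made. Primary granule proteins are made in promyelocytes, secondary and tertiary granule proteins in myelocytes and later cells, and receptors of mature neutrophils last. Of 16 tested primary granule genes 10 rose and 1, Cst7, fell (median 1.12, beside -0.04 over all tested genes), and the same number rose without GFP+ marrow 3. Prtn3, proteinase 3 (chr10:79879667-79883174), was at 786, 910 and 977 FPKM in control and 3958, 4021 and 4311 in GFP+ marrow (2.20 ± 0.16, limma adjusted p = 0.000128; 0.192 in the fit of 4 groups). Prss57, a related serine protease, was at 57.8, 58.6 and 66.9 FPKM and then 299, 302 and 359 (2.37 ± 0.14, adjusted p = 6.43e-05; 0.124 in that fit). Ctsg, cathepsin G (chr14:56099885-56102574), was at 2180, 2138 and 2190 FPKM and then 6354, 7326 and 6219 (1.61 ± 0.16, adjusted p = 0.000671; 0.384 in that fit). For these 3 genes the lowest GFP+ library was more than 2 times the highest control library. Elane, neutrophil elastase, rose less, from 3834, 4260 and 5391 FPKM to 8194, 8766 and 11169 (1.06 ± 0.22, adjusted p = 0.014), with adjusted p = 0.703 in that fit, 0.357 there without leukemic MEP 3, 0.0682 without control marrow 2 and 0.142 without a filter on low values. Mpo, myeloperoxidase, was high in both groups, at 6504, 5570 and 6951 FPKM and then 9155, 7922 and 9221, and was not called (0.47 ± 0.19, adjusted p = 0.144), although the groups did not overlap.

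Secondary and tertiary granule genes had no common direction, with 7 of 29 called higher and 3 lower (median 0.17). Falls numbered 0 without control marrow 1, 2 or 3 and 7 without GFP+ marrow 3. Pglyrp1, a peptidoglycan-binding protein, rose from 393, 435 and 453 FPKM to 1389, 1239 and 2190 (1.87 ± 0.22, limma adjusted p = 0.0013; 0.239 in the fit of 4 groups). Padi4, the deiminase that citrullinates histones in neutrophils, rose from 35.1, 32.4 and 28.1 FPKM to 149, 106 and 246 (2.27 ± 0.28, adjusted p = 0.00154). Both were highest in GFP+ marrow 3. Camp, cathelicidin (chr9:109847377-109849456), was at 8143, 8073 and 9330 FPKM in control and 1612, 459 and 3352 in GFP+ marrow. Its fall (-2.65 ± 0.60, adjusted p = 0.0203) was lost without control marrow 1, 2 or 3 (0.0775, 0.0732 and 0.0857), without a filter on low values (0.0658) and in the fit of 4 groups (0.419). Ngp, neutrophilic granule protein, was at 14003, 10614 and 12965 FPKM and then 6971, 3341 and 10121 (-1.01 ± 0.38, adjusted p = 0.114). The 3 GFP+ libraries had the same order for Camp and Ngp, lowest in GFP+ marrow 2 and highest in GFP+ marrow 3. Across this list GFP+ marrow 3 was above both other GFP+ libraries for 24 of 29 genes, beside 4297 of all 10843 tested genes.

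Of 34 tested genes of the mature neutrophil list 5 rose and 9 fell (median 0.14). Without control marrow 1, 2 and 3 the falls numbered 6, 5 and 5, and without GFP+ marrow 1 they numbered 5. S100a8, a subunit of calprotectin, was the most abundant, at 29100, 46268 and 43974 FPKM in control and 69537, 49841 and 66431 in GFP+ marrow, and was not called (0.65 ± 0.32, limma adjusted p = 0.212). Cxcr4, the receptor that holds neutrophils and progenitors in marrow (chr1:128588199-128592299), fell from 106, 112 and 118 FPKM to 33, 23.5 and 25.7 (-2.01 ± 0.17, adjusted p = 0.000259). C5ar1, a complement receptor, fell from 42.8, 42.6 and 47.3 FPKM to 9.95, 6.49 and 12.1 (-2.14 ± 0.24, adjusted p = 0.00103; 0.168 in the fit of 4 groups). Il1r2, the decoy receptor of interleukin 1, fell from 27.1, 19.5 and 23 FPKM to 6.83, 2.76 and 3.86 (-2.20 ± 0.31, adjusted p = 0.00253; 0.088 in that fit). These receptor genes were lower in every GFP+ library. Gsr, glutathione reductase, rose from 186, 128 and 161 FPKM to 686, 789 and 932 (log2 fold change 2.34; adjusted p = 0.0898 in that fit), and G0s2, an inhibitor of lipolysis, from 27.3, 40.5 and 35.9 to 162, 123 and 296 (2.37 ± 0.31, adjusted p = 0.00195; 0.253 in that fit).

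**Figure D5:**
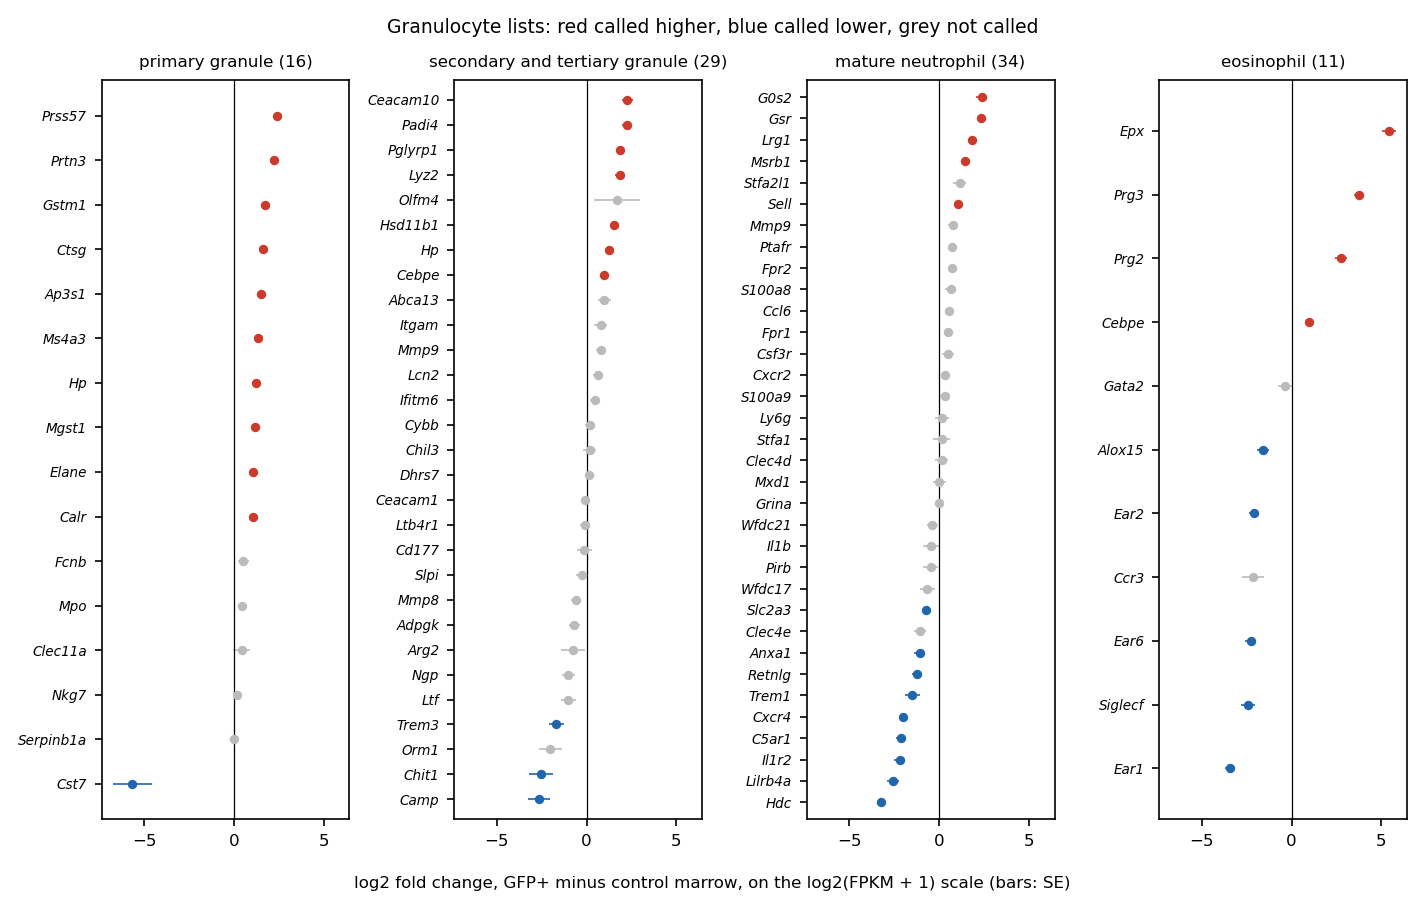
Log2 fold change (GFP+ minus control marrow, log2(FPKM + 1) scale) with its SE for each tested gene of 4 granulocyte lists, with called rises in red, called falls in blue and uncalled genes in grey. Of the primary granule genes 10 of 16 are red, and the secondary granule and mature neutrophil genes spread to both sides of 0. In the eosinophil list Epx, Prg3, Prg2 and Cebpe are above 0 and the other 7 genes, with the Ear genes and Siglecf among them, are below.

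Eosinophil genes moved in both directions. Beside Epx, 2 other granule protein genes rose. Prg2, the major basic protein (chr2:84980461-84983632), was at 362, 187 and 201 FPKM in control and 1221, 1485 and 2402 in GFP+ marrow (2.77 ± 0.32, limma adjusted p = 0.00112; 0.382 in the fit of 4 groups and 0.107 there without leukemic MEP 3). Prg3, a homologue of Prg2, was at 22.4, 15.7 and 11.2 FPKM and then 194, 293 and 201 (3.74 ± 0.27, adjusted p = 0.000128). A surface receptor and the 3 tested eosinophil ribonucleases, which are also granule proteins, fell. Siglecf, a sialic acid-binding receptor, was at 10.6, 7.31 and 5.41 FPKM and then 0.629, 1.39 and 0, a log2 fold change of -2.44. Ear1, an eosinophil ribonuclease, was at 9.58, 12.4 and 12.1 FPKM and then 0.429, 0 and 0 (-3.45 ± 0.28, adjusted p = 0.000228; 0.151 in the fit of 4 groups). Ear6 was at 2.82, 6.07 and 3.21 FPKM and listed at 0 in GFP+ marrow, at least 15.4-fold lower (adjusted p = 0.00253; 0.24 in that fit). The Ear genes are a family of near-identical copies, so values of single members are uncertain. In all, 4 of 11 tested genes rose and 5 fell, with 4 rises and 6 falls without GFP+ marrow 3.

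Basophil and mast cell genes were mostly lower, with 7 of 14 tested falling and 2 rising. The rises numbered 1 without control marrow 2 and 0 without control marrow 3, while the falls numbered 6 or 7 without any 1 library. Beside Prss34, Cpa3, the mast cell carboxypeptidase (chr3:20215616-20242209), fell from 180, 146 and 170 FPKM to 32.7, 38.9 and 27 (-2.31 ± 0.18, limma adjusted p = 0.000165). Hdc, the enzyme that makes histamine, fell from 104, 87.1 and 79.7 FPKM to 7.53, 10.8 and 8.02, a log2 fold change of -3.23. Mcpt8, the basophil protease, was at 159, 67.6 and 91.4 FPKM and then 134, 175 and 149 (0.60 ± 0.29, adjusted p = 0.199), with overlapping groups. Prss34 and Mcpt8, both basophil proteases, thus differed: the former was listed at 0 and the latter was not called.

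Of 23 tested monocyte genes 6 rose and 7 fell (median -0.82), with 3 falls without any 1 of control marrow 1, 2 and 3. Lyz2, lysozyme of monocytes and granulocytes (chr10:117277541-117282272), rose from 4846, 4253 and 4290 FPKM to 14498, 13109 and 21353 (1.84 ± 0.24, limma adjusted p = 0.00188; 0.29 in the fit of 4 groups). S100a4, a calcium-binding protein, rose from 10.5, 26 and 14 FPKM to 83.7, 76.1 and 79.4 (2.27 ± 0.29, adjusted p = 0.00185). F13a1, a coagulation factor made by monocytes, rose from 50.5, 25.8 and 22 FPKM to 201, 110 and 117 (2.13 ± 0.34, adjusted p = 0.00466; 0.224 in that fit). Receptors of more mature cells were among the falls. Fcgr3, an Fc receptor for immunoglobulin G, fell from 254, 246 and 255 FPKM to 32.1, 18.4 and 60.8 (-2.89 ± 0.36, adjusted p = 0.00154; 0.147 in that fit). Treml4, a receptor of mature monocytes and macrophages, fell from 10.7, 12.9 and 18 FPKM to 0.439, 0.531 and 0 (-3.49 ± 0.31, adjusted p = 0.00035).

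Myeloid machinery shared by granulocytes and monocytes was higher in part. Of 21 tested S100, annexin and galectin genes 9 rose and 3 fell (falls 1 without each of control marrow 1, 2 and 3 and GFP+ marrow 1 and 2), and S100a1 rose from 108, 141 and 141 FPKM to 304, 336 and 316 (1.30 ± 0.15, limma adjusted p = 0.0013). Lgals9, galectin 9, was among the falls, from 602, 666 and 673 FPKM to 263, 187 and 155 (-1.71 ± 0.20, adjusted p = 0.00123). Of 35 tested lysosome and cathepsin genes 13 rose and 6 fell. The rises numbered 7 without control marrow 2 and the falls 3 without control marrow 3. Ctsz, cathepsin Z, rose from 289, 319 and 327 FPKM to 627, 618 and 586 (0.97 ± 0.13, adjusted p = 0.00208). Ctse, cathepsin E (chr1:131638314-131675507), fell from 164, 179 and 190 FPKM to 10, 8.56 and 7.44 (-4.21 ± 0.17, adjusted p = 2.15e-05), and Lgmn, the protease legumain, from 71.9, 60.2 and 62.2 to 5.68, 14.7 and 10.2 (-2.64 ± 0.30, adjusted p = 0.00112). Of 35 NADPH oxidase and phagocytosis genes 10 rose and 4 fell, with 6, 4 and 4 rises and 1 fall each without control marrow 1, 2 and 3, 2 falls without GFP+ marrow 1, and 7 falls without GFP+ marrow 3. Tyrobp, the adaptor of activating myeloid receptors, rose from 605, 876 and 693 FPKM to 2074, 1597 and 2107 (1.42 ± 0.19, adjusted p = 0.00228; 0.269 in the fit of 4 groups).

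Of 21 tested genes of MHC class I presentation, the display of peptides to T cells, 8 rose and none fell (limma, adjusted p; none lower at an unadjusted p below 0.05 or by voom). The rises numbered 7, 4 and 3 without control marrow 1, 2 and 3, 3 without GFP+ marrow 1, 3 with libraries rescaled to equal totals, 4 after quantile normalization and 4 without limma's trend. Tapbp, the peptide-loading chaperone tapasin, rose from 139, 143 and 159 FPKM to 307, 273 and 320 (1.03 ± 0.14, adjusted p = 0.00207). H2-Q7, a class Ib heavy chain with close paralogs and thus uncertain, rose from 3.2, 3.7 and 3.34 FPKM to 10.3, 11.5 and 13.4 (1.52 ± 0.23, adjusted p = 0.00399). Of 48 interferon-stimulated genes 5 rose (10.4%) and 2 fell (4.17%), beside 7.73% and 8.64% over all tested genes. Rises numbered 2 without control marrow 3, and falls 1 without control marrow 1 or 3. Without GFP+ marrow 3, 8 rose and 6 fell. Ifitm3, an antiviral membrane protein with close paralogs, was among the rises, from 214, 316 and 246 FPKM to 978, 829 and 994 (1.86 ± 0.18, adjusted p = 0.000487).

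Of 39 tested myeloid transcription factors 13 rose and 4 fell (median 0.47). The rises numbered 8 without control marrow 2 and 14 without GFP+ marrow 3. Cebpd, a C/EBP factor induced by cytokines (chr16:15887286-15889545), rose from 11.5, 8.27 and 12.1 FPKM to 70.4, 63.1 and 70.5 (2.58 ± 0.19, limma adjusted p = 0.000145; 0.132 in the fit of 4 groups). Cebpe, the C/EBP factor of the granulocyte lineage, rose from 78.3, 65.2 and 86.9 FPKM to 136, 139 and 191 (log2 fold change 1.0, SE 0.18, adjusted p = 0.00872; 0.62 in that fit). Spi1, the gene of PU.1, rose from 177, 170 and 197 FPKM to 420, 340 and 378 (1.06 ± 0.14, adjusted p = 0.00212; 0.244 in that fit), and Gfi1, a repressor of the neutrophil lineage, from 5.31, 5.55 and 6.25 to 16, 19.1 and 34.9 (1.78 ± 0.30, adjusted p = 0.00584; 0.2 in that fit). Gfi1 and its paralog Gfi1b thus moved in opposite directions. The inhibitors of DNA binding also parted: Id1 rose from 10.9, 6.82 and 10.5 FPKM to 43.9, 51.6 and 48.5 (log2 fold change 2.26), and Id3 fell from 5.06, 5.1 and 4.8 to 0.321, 0 and 0 (-2.45 ± 0.27, adjusted p = 0.00103). The C/EBP motif TTGCNNAA was in 5 of 14 primary granule windows (35.7%), 10.8% of all windows and 8.77% of those of tested genes. It was in 13.6% of windows of all genes called higher and 11.4% of those called lower. The shares were 22.2% for the eosinophil list, 21.4% for mature neutrophils, 14.3% for macrophages and 10.3% for the erythroid list. C/EBP matches shared a base with AGATAA in 9 of the 32851 windows and with GAGGAA in 0.

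Of 34 tested stem and progenitor genes 5 rose and 9 fell (median -0.44), with 3, 2 and 2 rises without control marrow 1, 2 and 3, 3 rises without GFP+ marrow 1 or 2, and 3, 3 and 2 falls without control marrow 1, 2 and 3. Ly6a, which encodes the stem cell antigen Sca-1 (chr15:74994877-74998031), rose from 9.09, 7.65 and 8.62 FPKM to 66, 52.7 and 86.1 (2.85 ± 0.22, limma adjusted p = 0.000158). Flt3, a receptor kinase of early progenitors and dendritic cells, was at 27, 17.8 and 18.1 FPKM and then 5.82, 1.77 and 0.0968. Its fall (-2.97 ± 0.59, adjusted p = 0.0113) was lost without control marrow 1 (0.0631) and 3 (0.0503) and with a pseudocount of 0.1 (0.0519). Gata3, a factor of lymphoid cells and stem cells, fell from 3.58, 4.47 and 4.94 FPKM to 0.0952, 0.576 and 0.0367 (-2.13 ± 0.29, adjusted p = 0.00249). Myc, the most abundant but one of the list, was not called, at 154, 145 and 187 FPKM and then 181, 168 and 220 (0.23 ± 0.16, adjusted p = 0.391).

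Of 21 tested megakaryocyte and platelet genes 3 rose and 5 fell (median 0.09). Rises numbered 1 without control marrow 3 and 5 without GFP+ marrow 3, and falls 1 without each of control marrow 1, 2 and 3 and 2 without GFP+ marrow 1. Selp, P-selectin of platelets and endothelium, rose from 2.49, 1.1 and 1.15 FPKM to 15.4, 9.43 and 31.3 (2.82 ± 0.43, limma adjusted p = 0.00394). Fli1, a transcription factor of this lineage, was at 52.6, 32.9 and 35.1 FPKM and then 70.5, 83.2 and 88.8 (1.01 ± 0.21, adjusted p = 0.0133). Its call was lost without control marrow 2 (0.0661) and 3 (0.072) and with equal totals (0.0529). Of 10 tested stromal and endothelial genes 4 fell and 2 rose. The falls numbered 2 without control marrow 1, 2 or 3, and the rises 1 without control marrow 2, control marrow 3 or GFP+ marrow 1. One of the 2 rises was Spp1, and among the falls Pdgfrb, a receptor of stromal cells, was at 2.54, 2.13 and 1.64 FPKM and then 0.0564, 0 and 0 (-1.60 ± 0.27, adjusted p = 0.00584).

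Of 32 tested antigens that are followed or targeted on leukemia cells, 3 rose and 12 fell (median -0.51). Clec12a, a lectin receptor of myeloid blasts (chr6:129349783-129365303), rose from 403, 342 and 361 FPKM to 1569, 1875 and 1831 (2.25 ± 0.15, limma adjusted p = 8.85e-05; 0.186 in the fit of 4 groups). Il3ra, the interleukin 3 receptor alpha chain, rose from 7.59, 7.67 and 9.66 FPKM to 23.6, 27.2 and 16.9 (log2 fold change 1.32; adjusted p 0.132 in that fit), and Tnfrsf18, a TNF receptor family member, from 11.1, 16 and 9.9 to 29.4, 31.8 and 41 (1.41 ± 0.23, adjusted p = 0.00553; 0.168 in that fit). Cd33, a sialic acid-binding receptor of myeloid cells, fell from 23.3, 18.3 and 17.1 FPKM to 1.69, 0.87 and 2.36, a log2 fold change of -2.99. Siglece, a related receptor of mature neutrophils and macrophages, fell from 29.9, 27.9 and 36.1 FPKM to 0.497, 0.501 and 0.829 (-4.33 ± 0.24, adjusted p = 5.53e-05). Cd33 and Clec12a, both antigens of human myeloid leukemia, thus moved in opposite directions.

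Adhesion and cytokine receptor genes changed one by one. Of 33 integrins, selectins and homing genes 9 rose and 7 fell, with 4 and 3 rises without control marrow 2 and 3 and 5 without GFP+ marrow 1. Itga6, an integrin of stem cells and platelets, rose from 2.45, 2.27 and 3.22 FPKM to 8.34, 13.1 and 10.4 (1.66 ± 0.27, limma adjusted p = 0.00492). Esam, an adhesion molecule of endothelium, platelets and stem cells, fell from 4.67, 7.35 and 5.93 FPKM to 0.821, 0.497 and 0.0633 (-2.27 ± 0.32, adjusted p = 0.00249). Of 39 cytokine and growth factor receptors 7 rose and 7 fell. The rises numbered 3, 2 and 2 and the falls 4, 3 and 3 without control marrow 1, 2 and 3. Il17ra, the interleukin 17 receptor, fell from 47.1, 34.4 and 28.4 FPKM to 8.79, 8.4 and 5.44 (-2.13 ± 0.26, adjusted p = 0.00151), and Tnfrsf1a, a TNF receptor, rose from 27.2, 29.8 and 25.1 to 77.8, 90.7 and 144 (1.84 ± 0.23, adjusted p = 0.00168; 0.0801 in the fit of 4 groups).

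Genes of DNA replication were lower by small amounts. Of 47 tested, 21 fell and none rose at an adjusted p below 0.05 by limma or voom, with 1 higher and 34 lower at an unadjusted p below 0.05 (median -0.61). The falls numbered 13, 5 and 6 without control marrow 1, 2 and 3 and 15, 13 and 29 without GFP+ marrow 1, 2 and 3. They numbered 10 in the fit of 4 groups and 11 without limma's trend. Mcm2, a subunit of the replicative helicase (chr6:88883474-88898780), fell from 130, 126 and 132 FPKM to 70.2, 54.7 and 77.4 (-0.94 ± 0.16, limma adjusted p = 0.00654). Cdc6, which loads that helicase, fell from 36.4, 33.8 and 32 FPKM to 10.9, 9.57 and 18.7 (-1.37 ± 0.25, adjusted p = 0.00885), and Ccne1, cyclin E1 of S phase entry, from 75.4, 98.2 and 87 to 23.6, 21.8 and 40.8 (-1.61 ± 0.25, adjusted p = 0.00393). GFP+ marrow 3 had the highest GFP+ level of Mcm2, Cdc6 and Ccne1. Rrm2, a ribonucleotide reductase subunit and the most abundant of the list, was at 380, 334 and 350 FPKM and then 203, 264 and 274 and was not called (-0.53 ± 0.16, adjusted p = 0.0554).

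Of 47 tested mitosis genes 8 fell and none rose (limma, adjusted p; 23 lower and none higher at an unadjusted p below 0.05), with 3, 1 and 0 falls without control marrow 1, 2 and 3 and 6, 2 and 14 without GFP+ marrow 1, 2 and 3. They numbered 2 in the fit of 4 groups, 3 without limma's trend and 22 with equal totals. Plk1, a mitotic kinase, fell from 73, 77.2 and 81.4 FPKM to 46.2, 44.2 and 42.8 (-0.78 ± 0.14, limma adjusted p = 0.00728, and 0.051 without control marrow 3). Among inhibitors of cyclin-dependent kinases, Cdkn2c, the gene of p18, rose from 4.1, 3.16 and 5.69 FPKM to 21, 37.4 and 12.3 (2.10 ± 0.39, adjusted p = 0.00899), as did Cdkn1c, whereas Cdkn1b, the gene of p27, chosen after its values were seen, was at 16.2, 21.7 and 17.7 and then 17.6, 18.2 and 17.3 (-0.05, adjusted p = 0.884). Cdk4 and Cdk6, the kinases that p18 inhibits and the most abundant genes of the list of G1 cyclins and inhibitors, were not called (-0.23, adjusted p = 0.318, and 0.40, adjusted p = 0.114).

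Ribosome biogenesis and ribosomal protein genes parted. Of 35 biogenesis genes 13 fell and none rose (limma, adjusted p; none higher and 21 lower at an unadjusted p below 0.05; median -0.55). The falls numbered 9, 5 and 6 without control marrow 1, 2 and 3 and 20 without GFP+ marrow 3 or with equal totals. Ncl, nucleolin, fell from 105, 112 and 98.6 FPKM to 60.8, 50.7 and 47.4 (-0.98 ± 0.15, limma adjusted p = 0.00416), and Rrp9, of the small nucleolar particle U3, from 51.8, 77 and 83.2 to 30.5, 28.3 and 27.1 (-1.25 ± 0.20, adjusted p = 0.00512). None of 77 cytosolic ribosomal protein genes was called by limma or voom (median 0.06), with 4 higher and 2 lower at an unadjusted p below 0.05. Without GFP+ marrow 3, 6 of them were called lower, with equal totals 2 were, and with array weights 7 were called higher and 8 lower. Rpl4, among the most abundant, was at 1183, 1291 and 1210 FPKM and then 1574, 1419 and 1374 (0.24 ± 0.14, adjusted p = 0.286).

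Metabolic enzymes changed in both directions. Of 33 glycolysis and pentose phosphate genes 9 rose and 4 fell, with 5 rises without control marrow 3, 1 fall without each of control marrow 1, 2 and 3, and 6 falls without GFP+ marrow 3. Aldoa, aldolase A, rose from 336, 392 and 443 FPKM to 720, 721 and 819 (0.95 ± 0.15, limma adjusted p = 0.00476), and Pkm, pyruvate kinase, from 150, 139 and 164 to 358, 312 and 423 (1.26 ± 0.16, adjusted p = 0.00154; 0.138 in the fit of 4 groups). Pfkm, the muscle form of phosphofructokinase, fell from 23.7, 25.3 and 27.6 FPKM to 6.62, 5.47 and 7.97 (-1.80 ± 0.21, adjusted p = 0.00132). Idh1, cytosolic isocitrate dehydrogenase, rose from 81.9, 62.8 and 67.2 FPKM to 243, 288 and 287, a log2 fold change of 1.94. Of 33 genes of oxidative phosphorylation 2 fell (6.06%, beside 8.64% over all tested genes) and none rose (limma, adjusted p). At an unadjusted p below 0.05, 5 were lower and none higher. Without control marrow 1, 2 and 3 there were 1, 0 and 0 falls, and without GFP+ marrow 1 and 2 there were 0 and 1. The falls numbered 4 by voom, 6 with equal totals and 9 after quantile normalization. Of 30 genes of amino acid, one-carbon and polyamine metabolism 1 rose and 7 fell, with 4 falls without control marrow 2, control marrow 3 or GFP+ marrow 2 and 12 without GFP+ marrow 3. The rise was lost without control marrow 2 or 3, and 2 rose without GFP+ marrow 3. Asns, asparagine synthetase, fell from 139, 165 and 187 FPKM to 22.2, 43.3 and 24.9, a log2 fold change of -2.45, and Mthfd1, of folate metabolism, from 85.9, 80.9 and 78.9 to 18.4, 17.6 and 40 (-1.76 ± 0.29, adjusted p = 0.0056).

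Lipid genes were also divided. Of 36 cholesterol and fatty acid genes 8 rose and 6 fell, with 5 rises without control marrow 3 and 10 falls without GFP+ marrow 3. Scd2, a fatty acid desaturase, rose from 14.4, 13.3 and 15.7 FPKM to 36.6, 33.8 and 34 (1.21 ± 0.17, limma adjusted p = 0.00252), and Sqle, of cholesterol synthesis, fell from 19.2, 22.7 and 20.8 to 7.85, 7.08 and 9.44 (-1.27 ± 0.21, adjusted p = 0.00502). Lpl, lipoprotein lipase, which macrophages and stroma make, fell from 7.21, 8.27 and 4.31 FPKM to 0.25, 0.151 and 0 (-2.71 ± 0.31, adjusted p = 0.00112).

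Immediate early genes, which respond within minutes to signals and to handling of cells, were counted in 1 list with heat shock genes. Of its 32 tested members 5 fell (15.6%), 3 rose (9.38%) and 24 were not called. The shares over all tested genes were 8.64% for falls and 7.73% for rises. The rises numbered 0 without control marrow 3 and the falls 8 without GFP+ marrow 3. Jun, a subunit of the AP-1 factor, fell from 55.7, 79.8 and 57.2 FPKM to 7.01, 5.23 and 5.59, a log2 fold change of -3.22. Btg2, an antiproliferative gene, fell from 101, 120 and 93.5 FPKM to 24.8, 24.6 and 35.2 (-1.87 ± 0.19, limma adjusted p = 0.000688). The labels' protocol has cells of both groups sorted into Trizol and the labels name GFP+ for the leukemic marrow cells only, and the part of sorting in these values was not tested. Ccl9, a chemokine of myeloid cells, rose from 70.1, 49.2 and 70.8 FPKM to 255, 341 and 153 (1.91 ± 0.29, adjusted p = 0.00379), and Ccl4, a chemokine of activated cells, fell from 19.7, 25.2 and 15.8 to 0.464, 1.4 and 0.179 (-3.70 ± 0.34, adjusted p = 0.000404). Tnf, tumour necrosis factor, fell from 5.1, 4.97 and 4.61 FPKM to 1.02, 0 and 0 (-2.22 ± 0.35, adjusted p = 0.00413).

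The GFP+ libraries were not alike among themselves. GFP+ marrow 3 was at least 1 on the log2 scale away from both other GFP+ libraries in 1617 of the 10843 tested genes, above them in 597 and below them in 1020. The same count was 215 for GFP+ marrow 1, 303 for GFP+ marrow 2 and 39 to 85 for the control libraries. GFP+ marrow 3 also had the fewest genes at 1 FPKM or more, 9765 against 10454 and 10289 in GFP+ marrow 1 and 2. The part of this in its low values was not tested. The following genes were chosen after their values were seen. Tuba8, a tubulin, was at 0.521, 0.631 and 25.7 FPKM in GFP+ marrow 1, 2 and 3 and at 33.9 to 41.1 in control marrow. Krtcap3, a membrane protein, was at 0.902, 0 and 41.8 FPKM and at 7.49 to 8.06 in control marrow. In the other direction Ppbp, a platelet chemokine, was at 27.6, 63.4 and 0.109 FPKM, with 0.47 to 2.97 in control marrow. Ei24, a membrane protein of the endoplasmic reticulum, was at 19.6, 20.6 and 0.0515 FPKM. For Car1, Cst7 and Rhd above, too, GFP+ marrow 3 was the library nearest to control marrow. Among the mature neutrophil genes it was above both other GFP+ libraries for 23 of 34, beside 4297 of all 10843 tested genes.

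For some of the genes described above, values in the sorted MEP of the same study are given side by side without a test. Of these genes, Ly6a and Selp are not among the 15 largest rises in marrow. Npy was at 0, 0.238 and 0 FPKM in control MEP and 31.5, 21.3 and 14.8 in leukemic MEP, and Ecm1 at 0.735, 1.13 and 0.883 and then 83.4, 101 and 43.2. Slc38a5 was at 247, 298 and 277 FPKM and then 4.64, 1.51 and 5.55. For these 3 genes each leukemic MEP library lay on the same side of the MEP controls as the GFP+ marrow libraries did of theirs. Ly6a was at 0, 0.537 and 0 FPKM and then 13.4, 7.69 and 56.8, and Selp at 0.187, 0 and 0 and then 23, 11.7 and 16.6. Epx was at 0, 0.9 and 0 FPKM in control MEP and at 0.0334, 1.68 and 143 in leukemic MEP 1, 2 and 3, so it was high in 1 of the 3 libraries. That library, leukemic MEP 3, had 0.572 M recovered reads, against 9.71 and 7.22 M in leukemic MEP 1 and 2. Its top 10 genes held 23.9% of its FPKM, against 8.63% and 8.53%, so its values here and above are uncertain. Prss34 was at 0, 0.111 and 0.46 FPKM in control MEP and at 0, 0 and 84 in leukemic MEP, where leukemic MEP 3 differed from the GFP+ marrow libraries, which were listed at 0. Fcna was at 1.21, 2.42 and 2.83 FPKM in control MEP and 1.15, 0.276 and 1.26 in leukemic MEP, beside 1.95 to 5.67 in GFP+ marrow.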

How the data were processed

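RNA was measured in 12 libraries, and the 6 marrow libraries were used. The deposited table holds FPKM values that the authors computed before deposition. Per the labels' protocols, RNA taken up in Trizol was amplified with Smart-seq2, which does not mark strand, and sequenced as Nextera XT libraries on a HiSeq2500. Overlapping and antisense genes can therefore share reads. Per the submitters' processing notes, CASAVA, bcl2fastq, STAR 2.5.3a, the mm10 build and DESeq2 1.18.1 were used. The sources used here do not give the read counter and annotation.

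Whole reads, and with them the depths, were recovered for 16728 genes with any value above 0, which is 100% of them (tolerance 0.02). The library scale factors in the FPKM values equalled median-of-ratios size factors of these reads (largest relative difference 5.16e-14). FPKM sums thus differed between marrow libraries, from 470617 in control marrow 1 to 622546 in GFP+ marrow 3. Genes with at least 1 FPKM in at least 3 of the 6 libraries were tested with limma-trend on log2(FPKM + 1) (4 residual degrees of freedom), and called at a Benjamini-Hochberg adjusted p below 0.05 over all 10843 tested genes. An exact 2-sided permutation test of 3 against 3 libraries cannot go below p = 0.1, so none was used. Voom on the recovered reads was an alternative, beside other normalizations, filters, pseudocounts and fits without 1 library. The script was tested on simulated data.

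The members and gene lists were chosen with earlier results of these data known. Described genes were Prdm16, the 15 largest rises and 15 largest falls without overlap whose higher group averaged 10 FPKM or more, and, per list, up to 4 rises and 4 falls with the smallest adjusted p and the 2 highest members. Xist, Y-linked genes, unnamed genes, ribosomal pseudogenes and receptor segments were not ranked among the largest changes. Hbb-b1, Ahsp, Trac, Azu1 and Cd99 were not analysed here. Gene positions and promoters are RefSeq (GRCm38.p6), and 8542 of the 10843 tested genes had a promoter window. Limma 3.58.1 ran in R 4.3.3; pandas 2.3.3, numpy 2.4.6 and matplotlib 3.10.9 ran in Python 3.11.15.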

Additional observations from a re-analysis of the deposited data

How the results depend on the processing

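No called gene changed sign under any of the 21 alternatives, and 120 of the 263 called genes among the 306 described kept the call under each of them. The count of called genes (1775) moved by over 1.5 times to 1022 with the 4 groups in 1 fit (349 higher; the spread then includes the MEP libraries), to 3452 with array weights (1637 higher, 1815 lower) and to 4467 with GFP+ marrow 3 alone against control marrow (1870 higher, 2597 lower). With libraries rescaled to equal totals 513 genes were higher and 1504 lower. Rises outnumbered falls after quantile normalization (1001 and 952) and with the filter raised to 5 FPKM (790 and 696). Leaving out 1 library gave 787 to 2785 called genes, 371 to 1271 of them higher and 416 to 1514 lower: the fewest came without control marrow 3 and the most without GFP+ marrow 3. Without control marrow 1 and 2 the counts were 1085 and 819. Fits without 1 library have fewer samples, and beyond that the cause was not tested. Replicate numbers did not pair the libraries (correlations of same-numbered deviations 0.0204, -0.0625 and 0.0162), and with the replicate number as a block 1493 genes were called, 674 higher and 819 lower. The rise of Prdm16 kept its call under every alternative. Of 6389 values of single genes under alternatives, 5730 kept their sign and their side of the threshold, 550 lost the call and 40 gained it. Another 69 changed sign with the gene called in neither fit, and 0 changed sign with it called in either. Depth limits GFP+ marrow 2 (1.15 M reads), where a gene listed at 0 may be present at low level. GFP+ marrow 3 had more reads (9.44 M) but fewer genes above 0, with 11144 against 13302 and 12018 in GFP+ marrow 1 and 2. The reason was not tested, and a gene listed at 0 there may also be present. Floors of 3 reads cover counting error only.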
